A study of Arabidopsis thaliana with 12 samples.

Results

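An unchanged and a mutated version of the DNA methyltransferase CMT2 were compared in Arabidopsis lines that make about the same amount of its transcript. The libraries are the 2 titled as CMT2 with the V1200R mutation in cc, line 9 (V1200R/cc line 9), and the 2 titled as CMT2 in cc, line 1 (CMT2/cc line 1), 4 of the 12 libraries of the series. The lines were selected on their measured CMT2 transcript levels, which are nearly equal, so the CMT2 level itself is a description and no result. RNA was sequenced from whole seedlings grown for 10 days on 1/2 MS medium with 1% sucrose, under 16 h of light at 22 °C. All groups are in the Col-0 background. The cc parent carries T-DNA insertion alleles of CMT2 and CMT3 (cmt2-7 cmt3-11), and every transgenic line is this double mutant with a genomic CMT2 fragment under its own promoter and a FLAG tag at the C terminus, unchanged in CMT2/cc lines 1 and 19 and with the V1200R change in V1200R/cc lines 9 and 15. The study describes its transgenic lines as independent, so a difference between a V1200R line and a CMT2 line can come from the changed residue or from the line. The other groups used are untransformed Col-0 and cc, and each of the 6 groups has 2 libraries. The sources used here do not say whether the 2 libraries of a group came from separate plants, and the p-values measure the spread between these libraries.

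CMT2 and CMT3 are plant chromomethylases, enzymes that bind histone H3 methylated on lysine 9 and methylate cytosines in the DNA wrapped around it. CMT3 works mainly on CHG sites and CMT2 mainly on CHH sites, where H is any base but G, and together with other silencing pathways they keep transposable elements (TEs) transcriptionally quiet. Residue 1200 lies in the catalytic domain of CMT2, where the wild-type protein has valine. The V1200R lines were made to ask how this residue sets the sequence context that CMT2 methylates, and the RNA libraries ask what the changed enzyme does to transcript levels.

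The change that separates the lines is shown because it is the designed difference of the comparison. It lies in codon 1200 of CMT2 (AT4G19020), at chr4:10420449-10420472 on the plus strand of TAIR10.1, in the coding sequence of a protein of 1295 residues. The first sequence is the reference and the second is the mutagenesis primer, both 5′ to 3′, with codon 1200 in capitals.
reference CMT2: gttctaacaGTCccaacatgccac
V1200R primer: gttctaacaCGGccaacatgccac
Counted from 1 at the 5′ end of these 24 bases, the primer carries G10C, T11G and C12G, which turn the valine codon into an arginine codon.

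Transcript levels are given in TPM, a length-normalised share of all transcripts, as the authors deposited them. CMT2 was at 114 and 123 TPM in the libraries of CMT2/cc line 1 and at 112 and 127 TPM in those of V1200R/cc line 9, and the ranges overlapped. Col-0 had 14.1 ± 1.23 TPM (SD, n = 2) and cc 1.70 and 1.99 TPM, which puts both lines far above the native level. The other pair of lines was not matched, with 146 and 159 TPM in V1200R/cc line 15 against 79.6 and 80.8 TPM in CMT2/cc line 19.

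CMT3 was not lowered in the libraries labelled cc, at 16.4 and 14.0 TPM against 12.9 and 11.5 TPM in Col-0. The 4 transgenic groups were lower, with 5.30 and 4.72 TPM in line 1 and 6.24 and 6.29 TPM in line 9. Lines 9 and 1 did not overlap for CMT3, but the difference of 0.30 on the log2 scale (SE 0.13, limma, adjusted p = 0.195) did not pass the test. A transcript level does not show whether the inserted alleles still give a working enzyme.

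**Figure D1:**
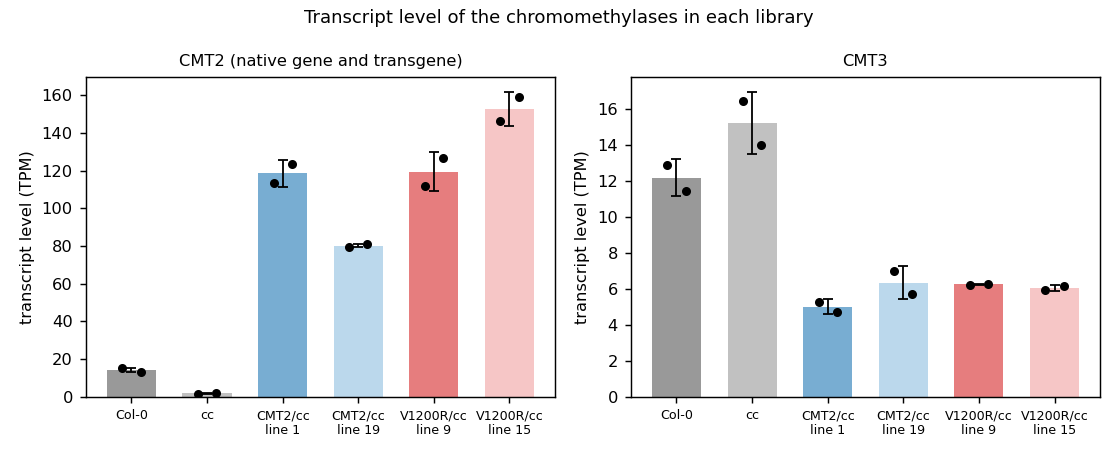
CMT2 (left) and CMT3 (right) transcript level in TPM in each of the 6 groups. Bars are means, error bars the SD of 2 libraries and points the libraries; CMT2 lies between 112 and 127 TPM in all 4 libraries of lines 1 and 9.

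Line 9 was compared with line 1 on the log2(TPM + 0.5) scale with limma, over 22710 nuclear genes and 865 TEs that reached 0.5 TPM in at least 2 libraries. A feature is said to have risen or fallen where the adjusted p was below 0.05 and the log2 difference at least 1. By this rule 277 genes (1.22%) rose and 129 (0.568%) fell in V1200R/cc line 9, and 3 TEs (0.347%) rose while 36 (4.16%) fell. The median difference was -0.02 over the genes and -0.03 over the TEs. The genes that rose were mostly protein-coding, 255 of 20860 (1.22%), with 94 protein-coding genes that fell (0.451%). Among 198 TE genes, loci that the annotation lists as genes inside TEs, 3 rose (1.52%) and 14 fell (7.07%).

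With 2 libraries a line, these counts lean on each library. Without replicate 1 of line 9 they were 67 genes and 21 TEs lower, and without replicate 2 of line 1 they were 78 genes and 22 TEs lower with 5 TEs higher. The number of genes higher stayed between 192 and 279 whichever library was left out. Fitted on the 4 libraries alone, without the spread of the other groups, 125 genes rose and 58 fell, and 20 TEs fell. Replicates correlated across features with r between 0.980 and 0.982 in each of the 6 groups.

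The 36 TEs that fell ranged from 27 to 5614 bases. Their median length was 1005.5 bases against 301 bases over the 865 TEs tested, and 14 of the 36 (38.9%) were at least 4000 bases long against 119 of 865 (13.8%), while 12 were under 200 bases. Their summed level was 149 and 184 TPM in line 1 and 12.8 and 13.4 TPM in line 9, beside 149 and 159 TPM in cc and 24.8 and 19.2 TPM in Col-0. That line 9 lies below line 1 in this sum follows from how the TEs were chosen, and the sum of line 1 includes 10 TEs that were higher there than in cc. Both libraries of line 9 were at 0.5 TPM or less for 33 of the 36 TEs, and 16 were listed at 0 in both. A value of exactly 0 in these files can be a failed estimate or a true absence, which were not told apart. Such a 0 in a library stood beside 20 TPM or more in another for 44 protein-coding genes. That count includes genes off in Col-0 and on in cc, such as AT5G45570.

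In the same 36 TEs the unmatched pair had 31.0 and 27.6 TPM in V1200R/cc line 15 against 122 and 128 TPM in CMT2/cc line 19. These libraries are not part of the contrast that chose the TEs, though they share its fit. With the 14 TE genes that fell, the features lie at 33 places in the genome when neighbours within 10000 bases are joined, 22 of them holding 1 feature.

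The Copia elements that the study follows are given library by library. The study examined Copia11 and Copia47 after its RNA sequencing of these lines, so their differences can follow from that choice and are a description. Copia89 and Copia18A were taken up there as TEs targeted by both CMT2 and CMT3. Copia elements are long terminal repeat retrotransposons, which copy themselves through RNA. A Copia is listed both as a TE and as an overlapping TE gene, so reads can be divided between the entries, and their TPM were added for the values that follow.

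Copia11 (AT3TE64435 with AT3G44215, chromosome 3, 15919028 to 15924078) had 33.6 and 45.7 TPM in line 1 and 0.352 and 0.154 TPM in line 9, beside 53.4 and 58.8 TPM in cc and 0.0189 and 0.0284 TPM in Col-0. The log2 difference of the summed level was -5.73 (SE 0.17, limma, adjusted p = 6.0e-07). Line 9 lay near Col-0 and line 1 near cc, without overlap.

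Copia47 (AT4TE50435 with AT4G20365, chromosome 4, 10992996 to 10998715) was at 27.0 and 27.3 TPM in line 1 and at 2.94 and 2.05 TPM in line 9, with 36.8 and 35.3 TPM in cc. The summed difference was -3.22 (SE 0.15, adjusted p = 6.1e-06). Taken alone, the TE entry fell by 4.99 (SE 0.80, adjusted p = 0.0059) and the gene entry differed by -1.55 (SE 0.76, adjusted p = 0.26). The division between the entries varied within lines, with 14.1 and 12.9 TPM in line 1 replicate 1, 22.5 and 4.89 TPM in replicate 2, 5.94 and 0.627 TPM in line 15 replicate 1 and 0.215 and 8.10 TPM in its replicate 2. Without replicate 2 of line 1 the TE entry's adjusted p was 0.051.

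Copia89 (AT1TE44380 with AT1G36185, chromosome 1, 13559846 to 13564825) had 7.06 and 11.3 TPM in line 1 and 0.256 and 0.0840 TPM in line 9, against 19.8 TPM in each cc library and a listed 0 in both Col-0 libraries. Its summed difference was -3.83 (SE 0.23, adjusted p = 1.9e-05). Copia18A (AT5G35935 with AT5TE50260, chromosome 5, 14083274 to 14089891) had 4.43 and 4.28 TPM in line 1 and 4.095 and 3.90 TPM in line 9, with 4.81 and 5.84 TPM in cc and 0.502 and 0.407 TPM in Col-0. Here the lines differed by -0.11 (SE 0.13, adjusted p = 0.68), and both stood close to cc. The same 4 elements in the unmatched pair gave summed differences of -4.41 for Copia11, -2.08 for Copia47 and -3.88 for Copia89, all past the test, and -0.11 for Copia18A (SE 0.13, adjusted p = 0.64).

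**Figure D2:**
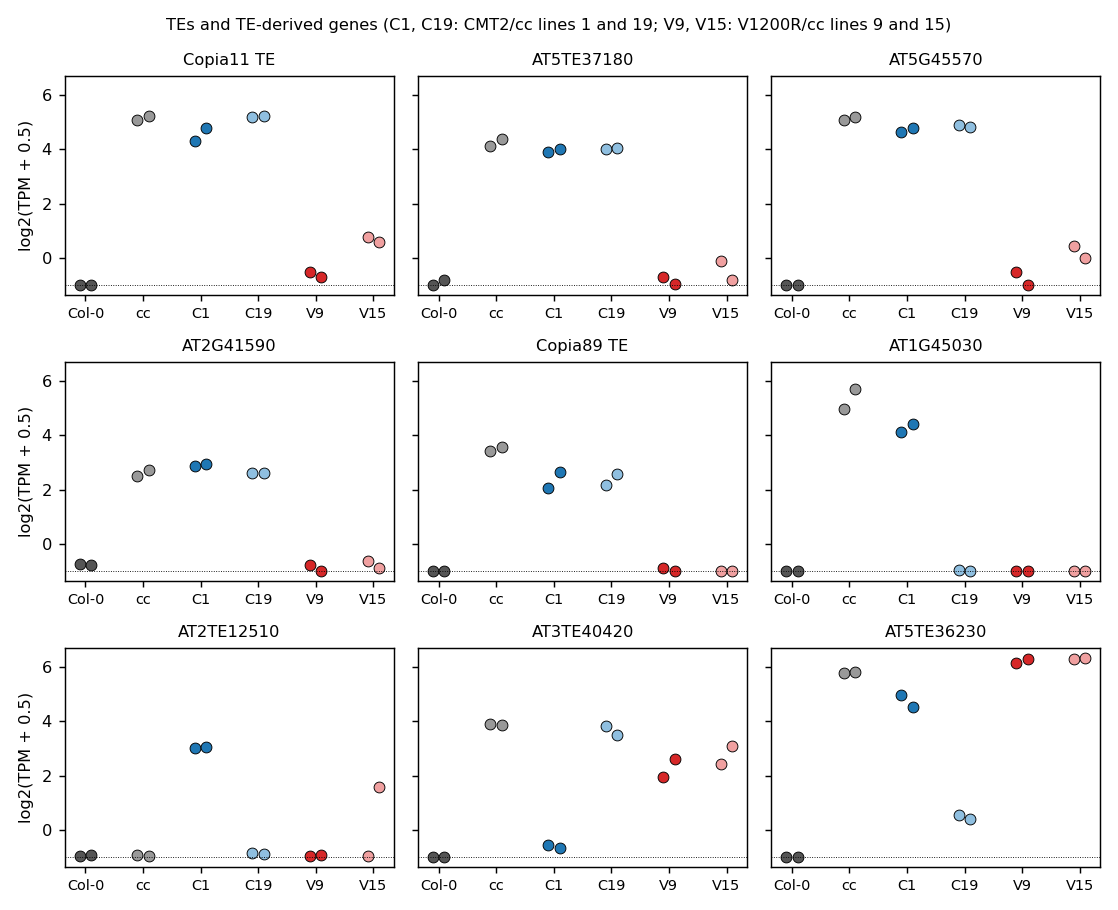
Level on the log2(TPM + 0.5) scale of 9 TEs, TE genes and protein-coding genes in each library, with 2 points a group. The dotted line marks 0 TPM. Copia11 falls from 19.4 and 27.3 TPM in line 1 to 0.201 and 0.105 TPM in line 9 in its TE entry, while AT2TE12510 is high only in line 1 and in 1 library of line 15, and AT5TE36230 is highest in the V1200R lines.

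Other TEs with large falls differed in how they behaved in the other groups. AT5TE37180 (chromosome 5, 10203660 to 10204189) had 14.6 and 15.9 TPM in line 1 and 0.114 and 0.0121 TPM in line 9, a difference of -4.81 (SE 0.23, adjusted p = 5.7e-06). It also fell in line 15 against line 19, by 4.51 (adjusted p = 5.8e-06), as Copia11 did. The TE gene AT1G45030 and its neighbour AT1G45035 (chromosome 1, 17029224 to 17030382) were instead on in cc and line 1 and off elsewhere. AT1G45030 had 30.9 and 52.0 TPM in cc and 17.1 and 20.9 TPM in line 1, and it was listed at 0 in both V1200R lines and at 0.0120 and 0 TPM in line 19. AT1G45035 had 5.49 and 10.5 TPM in line 1 and was listed at 0 in all 4 V1200R libraries, with 0.176 and 1.25 TPM in line 19.

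AT2TE12510 (chromosome 2, 2858588 to 2864201) fell by 4.02 as a TE entry (SE 0.62, adjusted p = 0.0050), from 7.72 and 7.92 TPM in line 1 to 0.00982 and 0.0187 TPM in line 9. The TE gene that overlaps it, AT2G06950, went the other way, with 9.28 and 9.50 TPM in line 1 and 16.6 and 17.5 TPM in line 9. Added together the locus differed by -0.01 (adjusted p = 0.94) and the fall was not seen in the total. Of the 36 TEs that fell, 25 overlap another listed feature.

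The TEs that rose were 3, and each overlaps another listed feature, so reads can be divided between entries. Values of the TE entries alone are given. AT4TE10320 (chromosome 4, 2188979 to 2194314) had 0.633 and 0.619 TPM in line 1 and 2.11 and 2.71 TPM in line 9, a rise of 1.36 (SE 0.18, adjusted p = 0.0020). Col-0 stood at 2.24 and 1.78 TPM, so line 9 was near the wild type and line 1 below it. AT3TE40420 (chromosome 3, 9692214 to 9697529) had 0.176 and 0.127 TPM in line 1 and 3.39 and 5.59 TPM in line 9, a rise of 2.90 (SE 0.26, adjusted p = 0.00019). AT5TE36230 (chromosome 5, 9949205 to 9954436) had 31.0 and 22.7 TPM in line 1 and 71.5 and 78.3 TPM in line 9, a rise of 1.48 (SE 0.13, adjusted p = 0.00017). In cc these last elements were at 14.5 and 14.0 TPM and at 54.7 and 55.7 TPM, and both libraries of line 9 were above both of cc for AT5TE36230.

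TEs that lose silencing in cc were taken as a set from libraries outside the comparison, the 158 of 865 (18.3%) that rose in cc against Col-0. Of these 22 (13.9%) fell in line 9 against line 1 and 2 rose, where 4.16% and 0.347% of all TEs tested did. Their median difference was -0.02, against -0.03 over all TEs tested. By the same test 15.4% of all TEs were lower in line 1 than in cc and 18.4% in line 9. Among the 134 that did not pass, 112 were lower than cc in both lines, 9 only in line 9, 1 only in line 1 and 12 in neither. The set was chosen for high levels in these cc libraries. Levels below cc, here and in the sums that follow, are favoured by that choice and are a description. Over all 158 TEs of the set, with the 22 that fell and the 2 that rose included, TPM summed to 899 and 892 for cc. The sums were 210 and 230 for the libraries of line 1, against 162 and 168 for those of line 9. All 4 libraries of lines 1 and 9 were at 1 TPM or less for 116 of the 158. Tested without features that overlap another, which left out 637 of the 865 TEs, 4 of the set fell.

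The 14 other TEs that fell had not risen in cc. For 12 of them the mean in cc was under 1 TPM, and 10 were higher in line 1 than in cc by the same test (2.31% of all TEs were), a pattern that the choice of these TEs favours and that is given as a description. AT4TE50435 of Copia47 is among them, with 0.426 and 0.518 TPM in cc, where the overlapping entry AT4G20365 had 36.4 and 34.8 TPM. Its sum was higher in cc than in line 1, so the entry's pattern is one of division between entries.

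Protein-coding genes with the largest falls included Ulp1 protease family genes and genes annotated as Ta11-like retrotransposons. AT5G45570 (chromosome 5, 18471498 to 18475574), annotated as an Ulp1 protease family protein, had 24.8 and 27.5 TPM in line 1 and 0.187 and 0 TPM in line 9, a difference of -5.51 (SE 0.18, adjusted p = 9.6e-07). Col-0 was listed at 0 and cc had 33.5 and 36.2 TPM, the pattern of Copia11. A second Ulp1 family gene, AT5G28235 (chromosome 5, 10201271 to 10203335), went from 15.7 and 14.6 TPM to 0.134 and 0.110 TPM, a fall of 4.65 (SE 0.16, adjusted p = 1.0e-06). AT2G41590, annotated as a Ta11-like non-LTR retrotransposon, went from 6.90 and 7.17 TPM to 0.0882 and 0 TPM, a fall of 3.80 (SE 0.17, adjusted p = 4.7e-06).

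Further genes differed in the unmatched pair. AT2G13450, also Ta11-like, fell by 2.92 (SE 0.22, adjusted p = 6.0e-05) from 3.08 and 3.93 TPM to 0 and 0.0534 TPM, but line 19 was itself at 0.135 and 0.0213 TPM. AT2G40955, an uncharacterized protein gene that overlaps 2 listed features, fell by 2.89 (SE 0.17, adjusted p = 1.8e-05) from 3.04 and 3.48 TPM, and it fell by 3.98 in line 15 against line 19 as well (adjusted p = 2.8e-06). AT1G63540, a hydroxyproline-rich glycoprotein family gene, had 6.40 and 5.93 TPM in line 1 and was listed at 0 in both libraries of line 9 and in both of Col-0.

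Some of these genes lay beside TEs or TE genes that fell, or overlapped them. Of the 94 protein-coding genes that fell, 7 (7.45%) lay within 2000 bases of a TE or TE gene that fell, against 36 of 20860 (0.173%) of all protein-coding genes tested. They were AT2G13450, AT2G16676, AT2G41590, AT4G08430, AT4G15096, AT5G28235 and AT5G45570, and 5 of them overlap a listed feature. For AT4G08430, AT4G15096 and AT5G45570 that feature is a TE that fell, so gene and TE can be entries of the same locus. AT2G13450, AT2G16676 and AT2G41590 are themselves annotated as Ta11-like retrotransposons. Of the 255 protein-coding genes that rose, 1 lay as near.

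No gene of the silencing machinery passed the test. Of 38 tested genes for DNA methyltransferases, histone methyltransferases, RNA-directed DNA methylation and demethylation, limma called 0 in either direction, with 1 higher and 2 lower at an unadjusted p under 0.05 and a median of 0.01. DRM2, the methyltransferase of RNA-directed DNA methylation, had 8.71 and 9.42 TPM in line 1 and 9.19 and 9.22 TPM in line 9. ROS1, a DNA demethylase whose transcript follows methylation of its own promoter, had 9.78 and 12.5 TPM in line 1 and 13.4 and 13.7 TPM in line 9, a difference of 0.28 (SE 0.13, adjusted p = 0.25) with all 4 values below the 21.4 and 25.7 TPM of cc.

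Genes listed as controlled by methylation gave no call either, 0 of 7 with 4 lower at an unadjusted p under 0.05 and a median of -0.60. The median was -0.29 and -0.38 without replicate 1 and replicate 2 of line 1, and 1 gene was called lower when only the 4 libraries compared were fitted. QQS, an orphan gene that regulates carbon and nitrogen allocation, had 19.3 and 27.5 TPM in line 1 and 14.1 and 15.4 TPM in line 9, with 38.9 and 38.0 TPM in cc and a listed 0 in Col-0. Its difference of -0.63 (SE 0.16, adjusted p = 0.044) stayed short of 1 on the log2 scale. MRU1 had 4.19 and 3.83 TPM in line 1 and was listed at 0 in all 4 V1200R libraries, with an adjusted p of 0.083.

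A large share of the genes that rose sits in a single stretch of chromosome 1. It was seen in the line 9 to line 1 differences, as the run of protein-coding genes with the highest summed difference, and those differences describe it without testing it. The segment runs from AT1G75630 to AT1G79230, chromosome 1, 28400439 to 29804033, and holds 379 listed protein-coding genes of which 327 were tested. Their median difference was 0.92 (quartiles 0.77 to 1.07), with 322 above 0 and 5 below. Of the 277 genes higher in line 9, 105 (37.9%) lie in it, and outside it 172 of 22362 genes (0.769%) rose and 129 (0.577%) fell. No gene in it was called lower, 1 having an unadjusted p under 0.05, and of its 8 tested TEs 0 were called and 0 had an unadjusted p under 0.05.

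The libraries of the unmatched pair, which did not help to place it, showed the same stretch. In line 15 against line 19 the 327 genes had a median of 0.93, 317 of them above 0, and 123 were called higher with 1 lower, where 2.94% and 0.906% of all protein-coding genes were. Searched for by itself in that pair, the run ended at the same gene and started 1 gene earlier, at AT1G75620, with 328 genes. Of the highest-scoring runs of the other chromosomes and directions, in either pair, the longest had 8 genes. A second raised run on chromosome 1 was not searched for. In windows of 50 neighbouring genes, the 11 windows wholly inside had medians of 0.82 to 0.97 in line 9 against line 1, and those elsewhere had medians of -0.17 to 0.10.

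The segment separates the V1200R libraries from all others. Relative to the Col-0 mean, the median over its genes was 0.92 and 0.96 in the libraries of line 9 and 0.94 and 0.98 in those of line 15, and it lay between -0.05 and 0.03 in the other 8. The summed TPM of its protein-coding genes was 18242 and 17700 in line 1 and 35649 and 36051 in line 9, a ratio of 1.99, and the ratio of line 15 to line 19 was 2.03. All 4 V1200R libraries lay above the other 8 for 286 of the 327 genes (87.5%), against 1112 of 20533 protein-coding genes elsewhere (5.42%). Restricted to 176 genes with at least 10 TPM in line 1, the median ratio of line means was 1.93 (quartiles 1.77 to 2.11), and 1.95 in the other pair.

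**Figure D3:**
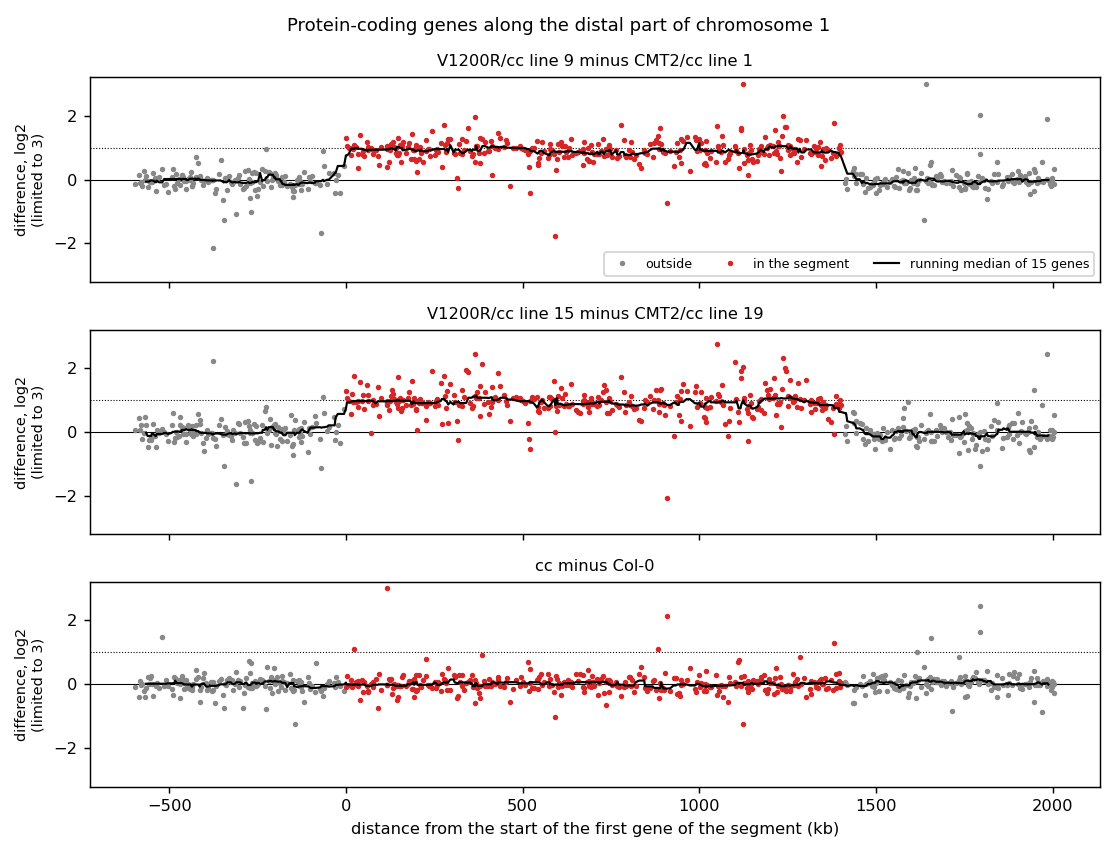
Log2 difference of each protein-coding gene against its distance in kb from the start of the first segment gene, for line 9 minus line 1 (top), line 15 minus line 19 (middle) and cc minus Col-0 (bottom); red points are segment genes and the black line is a running median of 15 genes. The median of the segment is 0.92 in the first pair, 0.93 in the second and -0.00 between cc and Col-0.

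Its edges are sharp at the scale of genes. At the left edge AT1G75590 differed by -0.44 and AT1G75620 by 0.42, and the first gene inside, AVA-P4 (AT1G75630, a proteolipid subunit of the vacuolar proton pump), by 1.31. At the right edge MST1 (AT1G79230, a sulfurtransferase) differed by 0.86 and the next tested genes, AT1G79260 and AT1G79270, by -0.11 and 0.01. The 20 tested genes on either side had medians of -0.03 and -0.09.

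PSBR (AT1G79040), a subunit of photosystem II and an abundant transcript, had 6457 and 6482 TPM in line 1 and 13121 and 12848 TPM in line 9, with 6522 and 7030 TPM in Col-0. PETE1 (AT1G76100), a plastocyanin that carries electrons between the photosystems, had 314 and 302 TPM in line 1 and 656 and 643 TPM in line 9. CDKB2;1 (AT1G76540), a cyclin-dependent kinase of mitosis, had 15.2 and 14.6 TPM in line 1 and 32.0 and 34.1 TPM in line 9, while the other 13 cell division genes tested had no call. In line 15 against line 19 the same 3 genes rose by 1.04 (SE 0.07, adjusted p = 1.9e-05), 1.05 (SE 0.07, adjusted p = 1.9e-05) and 0.86 (SE 0.11, adjusted p = 0.00105, short of 1).

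A few members moved beyond the common shift. ERD14 (AT1G76180), a dehydrin that protects cells during water loss, had 294 and 317 TPM in line 1 and 827 and 815 TPM in line 9, a difference of 1.43. AT1G78830, annotated as a curculin-like lectin, had 103 and 89.0 TPM in line 1 and 361 and 396 TPM in line 9, a difference of 1.98, and CML38 (AT1G76650), a calmodulin-like calcium sensor, had 5.66 and 4.02 TPM in line 1 and 24.8 and 16.2 TPM in line 9, a difference of 1.96. In the other pair these genes rose by 1.598, 2.31 and 2.43, each past the test. AT1G78476, an uncharacterized gene in the segment that overlaps another listed feature, was listed at 0 in both libraries of line 1 and in 4 others. It had 4.77 and 4.65 TPM in line 9 (limma, adjusted p = 0.035). That call was lost when any library of lines 1 or 9 was left out.

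DNA copy number was not measured here. The V1200R construct and the raised segment occur in the same 4 libraries, and their parts in the other differences between lines 9 and 1 cannot be told apart. For that reason it is said below where a member of a list lies in the segment.

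Lists of genes with a shared role were used, and each is described by its counts and its median beside those over all genes. The lists for stress, hormone, light and cell cycle genes and the organ markers were written with earlier results of these data known, and those for phosphate and iron were chosen after the values were seen.

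Rapid stress genes, which respond within minutes to touch, wounding, cold or pathogen signals and encode transcription factors, calcium sensors and mRNA regulators, rose in line 9 in 18 of 30, and 0 were called lower, with 1 lower at an unadjusted p under 0.05. Their median was 1.22 against -0.02 over all genes, of which 1.22% rose, and 17 of the 18 lie outside the segment, where the median was 1.19. Without replicate 1 of line 9 the count was 8, without replicate 2 of line 1 it was 9 and with only the 4 libraries fitted it was 6. In the unmatched pair 23 of 30 rose, with a median of 1.67 and 2.9% of all genes higher.

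ERF6 (AT4G17490), an ethylene response factor that restrains leaf growth under stress, had 8.03 and 7.79 TPM in line 1 and 35.5 and 26.9 TPM in line 9, a rise of 1.90 (SE 0.23, adjusted p = 0.0012). WRKY40 (AT1G80840), a regulator of defence, had 11.6 and 10.3 TPM in line 1 and 46.5 and 37.1 TPM in line 9, a rise of 1.88 (SE 0.26, adjusted p = 0.0026). CBF2 (AT4G25470), a cold-response transcription factor, had 1.05 and 1.12 TPM in line 1 and 8.74 and 4.93 TPM in line 9, a rise of 2.16 (SE 0.35, adjusted p = 0.0063) whose adjusted p was 0.057 without replicate 1 of line 9. In all 3 genes line 9 also stood above Col-0 and cc, which had 10.9 to 14.7 TPM for ERF6.

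Of 8 cold-regulated genes, targets of the CBF factors, 0 were called higher by limma, with 4 higher at an unadjusted p under 0.05, and their median was 0.22. In the unmatched pair 0 were called higher, with 6 higher at an unadjusted p under 0.05 and a median of 0.40. COR15B, a chloroplast protein of freezing tolerance, fell from 1.02 and 1.91 TPM to 0.384 and 0 TPM, a difference of -1.52 (SE 0.34, adjusted p = 0.025) that was not past the test without replicate 2 of either line (adjusted p = 0.15 and 0.14).

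Against Col-0, whose libraries both of the next comparisons share, line 9 had 7 of 30 higher, where 0.916% of all genes were, and line 1 had 0 higher and 1 lower, with 1 higher and 8 lower at an unadjusted p under 0.05. Relative to the Col-0 mean, the median over the list was 0.95 and 0.52 in the libraries of line 9 and -0.23 and -0.40 in those of line 1. Other defence lists gave single calls. LOX4 (AT1G72520), a lipoxygenase of jasmonate synthesis, rose from 3.64 and 3.88 TPM to 9.38 and 10.6 TPM, 2.66 times higher on mean TPM (adjusted p = 0.0040), as 1 of 10 jasmonate genes.

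FMO1 (AT1G19250), which makes the systemic immunity signal N-hydroxypipecolic acid, rose by 1.21 (SE 0.28, adjusted p = 0.031) from 1.98 and 1.31 TPM to 4.69 and 4.09 TPM as 1 of 14 salicylic acid genes. That call was lost without any of the 4 libraries (adjusted p = 0.055 to 0.17). PR1, the classic marker of salicylic acid defence, had 36.7 and 11.3 TPM in line 1 and 2.16 and 4.51 TPM in line 9, with an adjusted p of 0.45, and 59.9 and 2.16 TPM in Col-0.

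**Figure D4:**
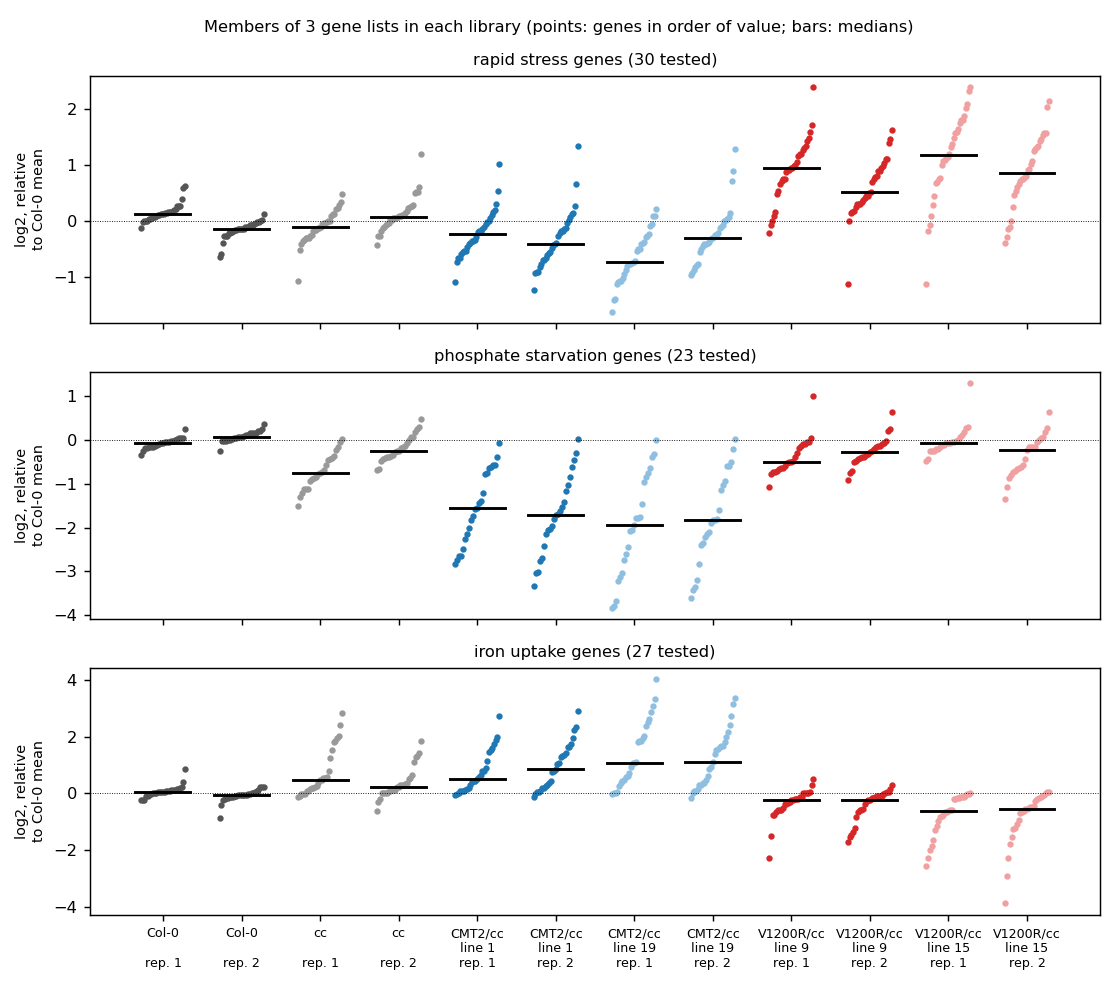
Level of each member of 3 gene lists in each of the 12 libraries, on the log2(TPM + 0.5) scale relative to the mean of Col-0; points are genes in order of value and bars are medians. The rapid stress median is 0.95 and 0.52 in line 9 and -0.23 and -0.40 in line 1, the phosphate median is -0.50 and -0.28 against -1.56 and -1.71, and the iron uptake median is -0.24 and -0.23 against 0.52 and 0.87.

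Phosphate starvation genes, which seedlings raise to take up, recycle and save phosphate, were higher in line 9 in 14 of 23, with 0 lower at an unadjusted p under 0.05. The median was 1.28, and 13 of the 14 lie outside the segment, where the median was 1.27. Without replicate 2 of line 1 the count was 3 and without replicate 2 of line 9 it was 6, with medians of 1.14 and 1.13, and with only the 4 libraries fitted it was 5. In the unmatched pair 17 of 23 rose, with a median of 1.62.

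IPS1 (AT3G09922), a non-coding RNA that sequesters the microRNA miR399 and is a marker of phosphate shortage, had 10.0 and 5.34 TPM in line 1 and 38.5 and 46.7 TPM in line 9, a rise of 2.45 (SE 0.43, adjusted p = 0.0097). Its adjusted p was 0.052 to 0.076 without either library of line 9 or without replicate 2 of line 1. GDPD1 (AT3G02040, listed as SRG3), a glycerophosphodiester phosphodiesterase that releases phosphate from lipid head groups, had 35.6 and 29.3 TPM in line 1 and 121 and 140 TPM in line 9, a rise of 2.00 (SE 0.12). SPX1 (AT5G20150), a sensor that restrains the phosphate response, had 48.4 and 41.1 TPM in line 1 and 109 and 142 TPM in line 9, a rise of 1.47 (SE 0.17). For each of these genes both libraries of line 9 were above both of line 1.

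Col-0 showed where each line stood, with the Col-0 libraries shared by both comparisons. It had 45.9 and 74.6 TPM for IPS1, 150 and 168 TPM for GDPD1 and 167 and 177 TPM for SPX1, so that line 1 was below the wild type in all 3 genes and line 9 overlapped it for IPS1 and was below it for the others. Of the 23 genes, 15 were lower in line 1 than in Col-0, where 0.638% of all genes were. In line 9 against Col-0, 0 were called in either direction by limma, with 1 higher and 8 lower at an unadjusted p under 0.05. PHR1, the transcription factor that drives these genes, had 55.4 and 59.0 TPM in line 1 and 54.7 and 55.3 TPM in line 9, a difference of -0.05 (SE 0.07, adjusted p = 0.70).

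PHR1 binds a short motif, GNATATNC, in the promoters it regulates. The motif was searched for on both strands in the 250 bases before the annotated start of each gene, and it was present in 8 of the 23 phosphate genes and in 1137 of 20860 protein-coding genes (5.45%). It was present in 7 of the 14 genes that rose and in 1 of the 9 others. The list is of genes that PHR1 drives and was chosen after the values were seen, so these shares describe it and test nothing. IPS1, with the largest rise of the list, has no match in the window, and SPX3 and GDPD1 have more than 1 match each. For genes with the motif that rose by about 2 or more, the sites nearest the gene start are shown. They are given with 8 bases on either side, 5′ to 3′ on the strand of the gene, with the motif in capitals, from TAIR10.1. They lie at chr4:12814594-12814617 on the minus strand (PAP24, a purple acid phosphatase), chr1:27466550-27466573 on the minus strand (PS2, a pyrophosphatase), chr2:18606312-18606335 on the plus strand (SPX3, of the SPX sensor family) and chr3:350058-350081 on the minus strand (GDPD1).
PAP24: aactgttaGAATATTCctgactaa
PS2: gggtaacgGAATATTCttctctta
SPX3: aaagctaaGCATATCCgctttcat
GDPD1: gatccaaaGAATATTCcaagatcc
A match of letters is a description and not a bound site. PAP24 had 0 and 0.257 TPM in line 1 and 2.73 and 2.12 TPM in line 9, PS2 had 15.3 and 8.75 TPM and 47.8 and 52.4 TPM, and SPX3 had 1.88 and 2.11 TPM and 11.2 and 8.42 TPM.

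Iron uptake genes moved the other way. They encode the root machinery that acidifies, reduces and imports iron and the transcription factors that switch it on, and 12 of 27 fell in line 9, where 0.568% of all genes did, with 0 higher at an unadjusted p under 0.05. All 27 differences were below 0, with a median of -1.003, and none of the genes lies in the segment. Without replicate 2 of line 1 the count was 6, without replicate 2 of line 9 it was 7 and with only the 4 libraries fitted it was 3. In the unmatched pair 18 of 27 fell, with a median of -1.62 and 1.05% of all genes lower.

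IRT1 (AT4G19690), the main iron importer of the root epidermis, had 57.9 and 73.7 TPM in line 1 and 11.6 and 6.83 TPM in line 9, a fall of 2.81 (SE 0.43, adjusted p = 0.0049). FRO2 (AT1G01580), the ferric reductase that works with it, had 20.7 and 24.6 TPM in line 1 and 3.97 and 2.84 TPM in line 9, a fall of 2.58 (SE 0.30, adjusted p = 0.0010). BHLH100 (AT2G41240), a transcription factor that turns both on, had 3.75 and 5.45 TPM in line 1 and 0.188 and 0 TPM in line 9, a fall of 3.10 (SE 0.29, adjusted p = 0.00025). The lines did not overlap in any of these.

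CYP82C4 (AT4G31940), a cytochrome P450 that makes the iron-mobilising coumarin sideretin, had the largest fall of the list, from 24.8 and 27.5 TPM to 2.15 and 0.870 TPM, by 3.80 (SE 0.59, adjusted p = 0.0049). Not every gene of the pathway passed. BTS, a ubiquitin ligase that holds the response back, had 32.8 ± 3.13 TPM in line 1 and 26.8 ± 1.27 TPM in line 9 (SD, n = 2), a difference of -0.28 (SE 0.08, adjusted p = 0.077). Of 4 iron storage genes 0 were called, with 2 higher at an unadjusted p under 0.05. FER1, the leading ferritin, had 387 and 284 TPM in line 1 and 375 and 429 TPM in line 9, which overlap.

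Col-0 lay between the lines, with 24.5 and 13.9 TPM of IRT1 and 5.54 and 4.11 TPM of FRO2, and cc had 73.4 and 47.4 TPM of IRT1. Against Col-0, 7 of the 27 genes were higher in line 1, where 0.462% of all genes were, and 1 was lower in line 9, where 0.414% were. IRT1 is also among the root markers, of which 1 of 8 fell and 0 rose, with 2 higher at an unadjusted p under 0.05. PYK10, a root beta-glucosidase, had 1343 and 1315 TPM in line 1 and 1921 and 2148 TPM in line 9, a difference of 0.61.

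Organ markers were read because seedlings can differ in the share of each organ, and in whole seedlings fewer cells of a type and less RNA per cell cannot be told apart. The summed TPM of the root markers was 1511 and 1501 in line 1 and 2021 and 2265 in line 9, with 1446 to 1965 in Col-0, cc and line 19, but PYK10 made up most of it. Of the 8 markers 4 were above 0 and 4 below, with a median of -0.12 that was 0.09 without replicate 1 of line 9. That of the leaf markers was 47182 and 48822 in line 1 and 42133 and 40969 in line 9, and 0 of the 7 were called, with 3 lower at an unadjusted p under 0.05. The part of organ shares in the lists above was not tested.

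Several other lists gave no call. Hypoxia genes had 0 calls of 13 (1 higher and 3 lower at an unadjusted p under 0.05, median -0.30, or -0.31 without the 1 member in the segment), heat shock genes 0 of 12 (5 higher, median 0.32), clock genes 0 of 12 (6 lower, median -0.27), and light harvesting genes 0 of 12 (1 higher and 2 lower, median 0.05). Flavonoid genes had 0 of 9 (6 lower, median -0.43) and DNA damage genes 0 of 7 (1 higher, median -0.02), with GMI1, a marker of double-strand breaks, at 2.19 and 1.59 TPM in line 1 and 3.89 and 4.06 TPM in line 9 (0.92, adjusted p = 0.016, short of 1).

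For the genes outside the segment that rose, the libraries of Col-0 and cc show which line stood apart. Of the 172, line 9 alone was above all 4 of those libraries in 65, line 1 alone was below all 4 in 39, both held in 56 and neither in 12. Of the 129 genes that fell, line 9 alone was below in 53, line 1 alone above in 35, both in 18 and neither in 23. The genes were chosen for a difference between the lines, so the counts describe them and test nothing.

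Among the remaining large rises, PRX52 (AT5G05340), a class III peroxidase of cell wall lignification, had 1.27 and 0.938 TPM in line 1 and 9.98 and 9.32 TPM in line 9, a rise of 2.67 (SE 0.30, adjusted p = 0.00087), with 2.204 to 4.45 TPM in Col-0 and cc. AT3G43850 was listed at 0 in both libraries of line 1 and had 6.51 and 6.97 TPM in line 9, with 1.19 to 3.43 TPM in all other libraries but the V1200R ones of line 15. AT1G45165 was listed at 0 in line 1 and in cc and had 2.66 and 3.36 TPM in line 9, close to the 2.18 and 3.14 TPM of Col-0. AT3G43850 and AT1G45165 overlap other listed features, so reads can be divided between entries, and no summed level is given for them. AT2G45135, a RING/U-box protein gene, and AT5G46295, of unknown role, had 2.26 and 2.62 TPM and 5.93 and 2.96 TPM in line 9, and both calls were lost without most of the 4 libraries (adjusted p = 0.14 to 0.16 and 0.070 to 0.12).

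The unmatched pair shares no library with the comparison, and its calls can be set against it, though its V1200R line has more CMT2 transcript than its CMT2 line. Both V1200R lines also have the raised chromosome 1 segment, and neither CMT2 line does. Agreement between the pairs therefore cannot separate the construct from the segment. In the unmatched pair 658 genes (2.9%) rose and 239 (1.05%) fell. Of the 277 genes higher in line 9, 225 rose in line 15 as well, which is 81.2% of the first list and 34.2% of the second, and outside the segment it was 138 of 172 (80.2%). Of the 129 genes lower, 76 fell in both (58.9% and 31.8%). No gene changed in opposite directions. Without replicate 1 of line 9 the genes that changed alike were 197 and without replicate 2 of line 1 they were 196, of 301.

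For TEs, line 15 had 14 TEs higher (1.62%) and 48 lower (5.55%) than line 19, and 15 of the 36 that fell in line 9 fell there too (41.7% of the first list and 31.25% of the second). Of the 21 others, 18 were under 1 TPM in CMT2/cc line 19 to begin with. The difference of the differences, tested as 1 contrast, was past the threshold and above 0 for 9 genes (0.0396%) and 7 TEs (0.809%), and below 0 for 7 genes (0.0308%) and 2 TEs (0.231%).

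Several of these 25 features differed between the CMT2 lines. AT3TE45385, a TE of chromosome 3, had 29.7 and 28.3 TPM in cc and 23.65 and 25.4 TPM in line 19, and 0.0406 and 0.0847 TPM in line 1, with at most 0.0950 TPM in the V1200R libraries. OFP9 (AT4G04030), an ovate family protein gene, had 32.7 and 33.4 TPM in cc and 25.7 and 27.7 TPM in line 19, and 0.0799 and 0.169 TPM in line 1 against 0.0823 and 0.0413 TPM in line 9. AT2G15555, an RNA of unknown role, ran the other way, with 4.88 and 7.65 TPM in line 1, 0.0633 and 0.239 TPM in line 19 and 117 to 126 TPM in the 4 V1200R libraries, above the 60.2 and 58.7 TPM of cc. These 3 were chosen for description after their values were seen.

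**Figure D5:**
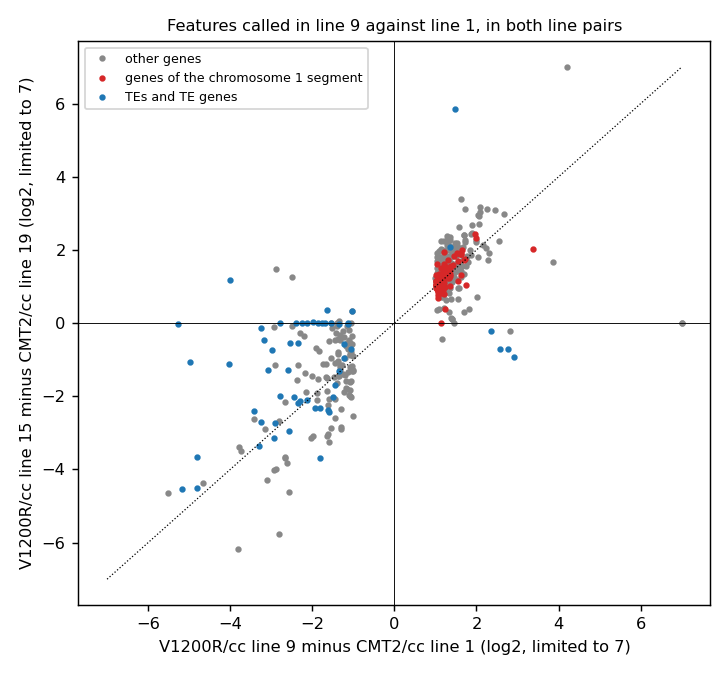
Log2 difference of each feature called in line 9 against line 1 (horizontal axis) and its difference in line 15 against line 19 (vertical axis), both limited to 7, with the dotted line marking equality; red points are segment genes, blue points TEs and TE genes, grey points other genes. The genes higher in line 9 lie above 0 in line 15 for 269 of 277, and the blue points that lie on 0 include TEs that were off in line 19.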

How the data were processed

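RNA-seq libraries were made from whole seedlings, 2 for each of 6 groups. Per the submitters' processing notes and the study's methods, the authors used fastp for trimming, HISAT2 2.0.0 for alignment on TAIR10 and StringTie for abundance. The strand setting is not given in the sources used here. The deposited tables hold TPM, which sum to 1000000 per library over nuclear and organelle features, with FPKM and coverage computed by the authors beside them. Coverage served only to describe depth, 929522248 to 1452952115 aligned bases per library, and organelle genes took 0.009 to 0.018% of TPM. The precision of a value is set by 2 libraries a group.

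The files used hold no counts, so log2(TPM + 0.5) was tested with limma 3.58.1 in R 4.3.3, in 1 fit of 12 libraries with a coefficient for each group and moderated variances with a trend. Entries with the same identifier were summed. A feature was tested where 2 or more libraries reached 0.5 TPM, and p-values were adjusted by Benjamini-Hochberg over all 23575. Python 3.11.15 with numpy 2.4.6, pandas 2.3.3 and matplotlib 3.10.9 was used for the rest, and the test was tried on simulated data.

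Named were the 8 protein-coding genes with the largest rises and the 8 with the largest falls, 6 falling and 4 rising TEs or TE genes (with 3 found to rise), all with at least 2 TPM in the higher line and replicates within 1 on the log2 scale, up to 4 called members of each list, CMT2, CMT3 and the Copia elements. A result for 1 of the rising genes is not reported here. Members and lists were chosen with earlier results of these data known, and 6 of the 24 lists, the segment, the motif and other described genes after their values were seen. RefSeq supplied gene names for 37572 of 37868 identifiers, and the reference sequence came from its TAIR10.1 assembly. Alternatives changed the pseudocount, filter, unit, scaling, libraries fitted, replicate block, thresholds and overlapping features, or left out each library.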

Additional observations from a re-analysis of the deposited data

Results flagged for a closer look

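The difference between line 9 and line 1 was itself different from that between line 15 and line 19 for 25 features, tested as a difference of differences with limma (adjusted p below 0.05). Of the named features 5 are among them.

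AT1G45165 differed by 3.03 on the log2(TPM + 0.5) scale, having been listed at 0 in line 1 and at 3.73 and 2.58 TPM in line 19. It overlaps another listed feature, so reads can be divided between entries. AT2G13450 differed by -2.83 and the TE gene AT1G45030 by -5.26, both with line 19 near 0 where line 1 was not. AT3TE40420 differed by 3.83, with 13.8 and 10.9 TPM in line 19 and 4.83 and 8.02 TPM in line 15. AT5TE36230 differed by -4.38, with 0.955 and 0.822 TPM in line 19 and 78.9 and 81.3 TPM in line 15, so that it was higher in both V1200R lines than in either CMT2 line.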

How the results depend on the processing

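No named feature changed direction. Over 41 named features and 589 values under the alternatives, 543 kept their side of the threshold, 45 lost it and 1 gained it, and of the counts 120 stayed within 1.5 times and 36 did not. Without the filter on low values, 83 genes fell, 5 TEs rose and 42 features differed between the line pairs. With a mean of at least 1 TPM, 18 TEs fell, 14 of them high in cc. Fitted on only the libraries compared, 125 genes rose and 58 fell, 20 TEs fell and 16 features differed between the pairs. Without overlapping features (13054 tested in place of 23575), 180 genes rose and 73 fell, 0 TEs rose and 14 fell, 4 of them high in cc, 195 genes and 4 TEs changed alike in both pairs and 12 features differed. With a TE and its TE gene summed, 5 TEs rose. With the adjusted p alone, 1093 genes rose, 751 fell and 1555 changed alike. With a log2 difference of at least 2, 24 genes rose and 38 fell, 1 TE rose and 21 fell, 13 of them high in cc, and 34 genes and 9 TEs changed alike. Without the chromosome 1 segment, an alternative chosen after seeing the data, 172 genes rose. The cause of these changes was not tested beyond what each alternative leaves out.

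Leaving out 1 library at a time gave 192 to 279 genes higher, 67 to 116 lower, 3 to 5 TEs higher, 21 to 33 lower, 16 to 21 of those high in cc, 196 to 279 genes and 14 to 20 TEs alike, and 21 to 31 features differing. A lone library was then assumed to vary like the other groups. Same-numbered libraries did not deviate together (r = 0.01 for lines 9 and 1, -0.06 for lines 15 and 19). A single correlation per pair of lines cannot show whether a batch shared by same-numbered libraries acted on some genes. With the replicate number as a block, 275 genes rose and 134 fell, 3 TEs rose and 36 fell, 21 of them high in cc, 305 genes and 17 TEs changed alike and 23 features differed. The deposited values carry no read counts, so the depth behind a low TPM could not be given.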

Other observations

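Of 10 sulfate starvation genes, a list chosen after values were seen, 2 fell and 0 rose (1 higher at an unadjusted p under 0.05, limma), with a median of -0.35, or -0.36 without the 1 member in the segment. LSU3, a small protein induced by sulfur shortage, had 10.8 and 10.6 TPM in line 1 and 3.06 and 4.67 TPM in line 9, a fall of 1.38 (SE 0.21, adjusted p = 0.0047). LSU1 fell by 1.16 (SE 0.29, adjusted p = 0.045) from 22.4 and 14.4 TPM to 5.83 and 10.3 TPM. The count of the list was 1 without either library of line 1 or without replicate 1 of line 9, and 0 with only the 4 libraries fitted.

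Genes induced by darkness and sugar shortage, also chosen after values were seen, were above 0 in 11 of 11, with a median of 0.62 (0.36 without replicate 1 of line 1), and 2 passed the test, where 1.22% of all genes rose. SEN1, a senescence-associated gene induced in the dark, had 70.2 and 84.8 TPM in line 1 and 260 and 249 TPM in line 9, a rise of 1.72 (SE 0.09, adjusted p = 1.3e-05). BT2, a scaffold protein that responds to sugar and nitrogen, had 42.1 and 47.7 TPM in line 1 and 102 and 101 TPM in line 9, a rise of 1.17 (SE 0.18, adjusted p = 0.0042). SAG12, the marker of developmental senescence, was listed at 0 in every library. Of the 4 senescence markers tested, SEN1 among them, 1 rose and 0 fell, with 2 differences above 0, 2 below and a median of 0.21. SAG13 had the lowest difference, -1.67, and 2 markers were higher and 1 lower at an unadjusted p under 0.05.

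Among 7 repressors of flowering, chosen likewise, FLC and MAF1 rose and 0 fell, with 0 lower at an unadjusted p under 0.05. FLC, which delays flowering until winter has passed, had 1.45 and 0.754 TPM in line 1 and 6.58 and 5.64 TPM in line 9 (2.07, SE 0.51, adjusted p = 0.037), with 0 and 1.27 TPM in line 19 and 8.03 and 7.86 TPM in line 15. MAF1 had 33.8 and 42.3 TPM in line 1 and 86.5 and 85.1 TPM in line 9, and lies in the chromosome 1 segment, outside which the median of the list was 0.23. The count was 1 whichever of the 4 libraries was left out and 0 with only those 4 fitted.

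Seed markers were low in the compared lines, where EM6, a late embryogenesis protein, was listed at 0 in line 1 and had 1.01 and 0.966 TPM in line 9, a call that was lost without any of the 4 libraries (adjusted p = 0.10 to 0.13). In line 15 the summed level of the 4 markers was 19.8 and 27.5 TPM, against 1.13 and 3.66 TPM in line 9. Of 6 auxin growth genes, 0 were called, with 3 higher at an unadjusted p under 0.05 and a median of 0.40.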
